A study of Caenorhabditis elegans with 2 samples.

Results

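Body wall muscle of the worm Caenorhabditis elegans was represented by 41 named genes, which encode the factors that set muscle fate, the proteins of the thick and thin filaments, the attachments that anchor the filaments to the body wall, the calcium machinery, a guidance factor and the basement membrane collagens. They were listed by name and known role, with no measured value in the rule, and they make up 41 of 19973 protein-coding genes scored. Each gene was scored by every region of chromatin immunoprecipitation signal whose summit, its position of highest signal, lay in the gene body or within 2000 bp of one of its transcript starts. Genes without a region stayed in all counts.

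The signal came from chromatin immunoprecipitation followed by sequencing (ChIP-seq), an assay that recovers the DNA to which a protein is bound. The protein was TBX-8, a transcription factor of the T-box family. Both samples came from strain RW10470, where the insertion st10470 joins tbx-8 to TY1, EGFP and 3xFLAG tags and carries an unc-119(+) marker in an unc-119(ed3) background. Whole embryos of mixed stage and sex, aged 2.5 hours and obtained by bleaching, were sheared to fragments of 200 to 800 bp and precipitated with an antibody against GFP. These 2 samples were biological replicates of 1 group, so no condition could be compared. Nothing in the labels says whether endogenous tbx-8 was still present, and the labels' antibody field names tbx-8. ChIP-seq gives no transcript level, so muscle marker genes could not be checked as expressed. In whole embryos, binding in few cells and weak binding in many cells cannot be told apart.

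Body wall muscle cells of the embryo are specified by HLH-1, the worm MyoD, together with UNC-120, a serum response factor, and HND-1, a HAND factor. Their contractile units are anchored through dense bodies and M-lines, where integrins link the filaments to perlecan and collagen in the basement membrane. T-box factors bind DNA through a conserved domain that recognises a short core, GGTGTG on one strand and CACACC on the other, and tbx-8 is known, together with its close relative tbx-9, for its role in shaping the embryo and in the arrangement of body wall muscle and epidermis.

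The highest summit of each of 4 genes, all among the 7 with a region in the top 10% of the pooled list, is shown first, because the results turn on them; a higher summit at unc-73 is described by its values alone. Each sequence is the 201 bp centred on a summit, read from the RefSeq copy of the WBcel235 assembly (ce11) on the plus strand, in lower case. Capitals mark the T-box core CACACC, the word GAGAGA, and CAGCTG, the form of the E-box preferred by HLH-1. The unc-97 window, chrX:5591925-5592125, and the pat-4 window, chrIII:96073-96273, hold none of these words. The act-4 window, chrX:4962430-4962630, lies in an intron. It holds a CACACC that begins 21 bp before the summit and GAGAGA beginning 64 bp before and 44 bp after it. The deb-1 window, chrIV:7084900-7085100, holds a CAGCTG that begins 71 bp before the summit. This summit lay outside the deb-1 gene body, 318 bp from the start of rps-4. CAGCTG was no more frequent at the muscle summits than over all pooled regions.
unc-97: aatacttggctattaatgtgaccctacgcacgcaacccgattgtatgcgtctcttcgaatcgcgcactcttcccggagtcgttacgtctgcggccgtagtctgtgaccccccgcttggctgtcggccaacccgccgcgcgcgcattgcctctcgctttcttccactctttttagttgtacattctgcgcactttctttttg
pat-4: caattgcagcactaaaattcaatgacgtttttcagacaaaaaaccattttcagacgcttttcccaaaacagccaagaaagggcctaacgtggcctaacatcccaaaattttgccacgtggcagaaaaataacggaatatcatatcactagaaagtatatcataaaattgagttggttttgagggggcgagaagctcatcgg
act-4: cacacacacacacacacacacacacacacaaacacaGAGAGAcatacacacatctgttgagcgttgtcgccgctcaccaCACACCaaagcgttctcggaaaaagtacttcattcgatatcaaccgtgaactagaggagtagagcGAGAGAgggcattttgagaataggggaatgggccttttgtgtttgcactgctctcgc
deb-1: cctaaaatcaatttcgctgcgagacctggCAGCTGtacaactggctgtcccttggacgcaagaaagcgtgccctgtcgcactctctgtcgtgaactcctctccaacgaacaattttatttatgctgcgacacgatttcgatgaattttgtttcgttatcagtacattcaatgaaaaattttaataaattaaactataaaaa

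The deposited data were 4 lists of regions: 1 for each replicate, 1 called on both replicates pooled, and a thresholded list left after the step that scores how well replicates rank the same regions. They held 24167 regions in replicate 1, 20865 in replicate 2, 16355 in the pooled list and 521 in the thresholded list, whose regions are called peaks here. All 521 peaks were the highest pooled regions, with a signal from 75.8 to 571, and the first pooled region below them had a signal of 75.7. Per the file descriptions the lists hold background regions too, and only 882 pooled regions had a q-value below 0.05. Signal is the authors' own value for a region and is not scaled between lists, so a region is also given by its percentile. That is the percent of its list with a signal at or below its own. Read numbers are not in the lists, and the depth of each replicate is therefore unknown.

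Most of the muscle genes had a region in the pooled list, but few had a strong one. A pooled region was found at 35 of 41 genes, or 85.4% (95% exact binomial interval 70.8 to 94.4%), beside 51% of all protein-coding genes. A pooled region at q below 0.05 was found at 2 of 41 genes, unc-97 and pat-4, or 4.88% (0.596 to 16.5%), beside 5.38% of all genes. Both summits lay over 1000 bp upstream, and with a start window of 1000 bp the count was 0. A peak of the thresholded list was found at 1 gene, unc-97, or 2.44% (0.0617 to 12.9%), beside 3.33% of all genes. The share of muscle genes was above that of all genes for a region of any strength and close to it for regions at q below 0.05 and for peaks. These intervals cover counting error only, and genes are not replicates.

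A region in the top 10% of the pooled list by signal was found at 7 of 41 genes, or 17.1% (7.15 to 32.1%), beside 9.16% of all genes. They were unc-97, pat-4, act-4, deb-1, dim-1, let-2 and unc-73. In the replicate 1 list a region was found at 38 of 41 genes (92.7%), beside 64.8% of all genes, and in the replicate 2 list also at 38, beside 60.9%. A region in the top 10% was found at 8 genes (19.5%, 8.82 to 34.9%) in replicate 1, beside 12.4% of all genes, and at 13 genes (31.7%, 18.1 to 48.1%) in replicate 2, beside 11.3%. At q below 0.05 the replicate 1 list named 3 genes, unc-97, pat-4 and act-4 (7.32%), beside 5.72% of all genes. The replicate 2 list named 2, unc-27 and act-4 (4.88%), beside 5.05%. Only act-4 had a region at q below 0.05 in both replicate lists, 1 gene of 41 (2.44%) beside 3.11% of all genes, and its regions lay at different places in the 2 lists.

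**Figure D1:**
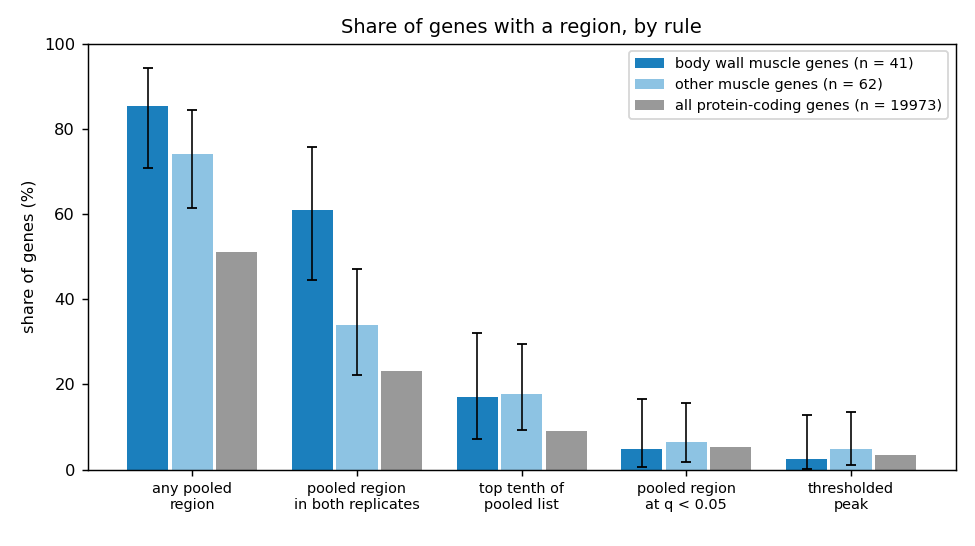
Share of genes with a region under each of 5 rules (vertical axis, percent) for the 41 body wall muscle genes, 62 other muscle genes and all 19973 protein-coding genes. Bars are shares and error bars are 95% exact binomial intervals; the muscle genes reached 85.4% against 51% for any pooled region and 2.44% against 3.33% for a thresholded peak.

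Length bears on these counts, since a long gene has more room for a summit. The scored length, the gene body plus 2000 bp on either side of each start, had a median of 7.36 kb in the muscle genes and 4.17 kb in all genes. Of the 12 muscle genes scored over up to 5 kb, 8 (66.7%) had a pooled region, beside 42.3% of the 13196 genes of that length. Of the 18 genes over 5 to 10 kb, 17 (94.4%) had one, beside 62.5% of 5234 genes. Of the 11 genes over 10 kb, 10 (90.9%) had one, beside 86.4% of 1543 genes. The share was above that of all genes in each class, least so among the longest genes, but the intervals of the shortest class (34.9 to 90.1%) and the longest (58.7 to 99.8%) hold the share of all genes. That of the middle class, 72.7 to 99.9%, does not. For the top 10% the shares were closer: 1 of 12 (8.33%) beside 6.74%, 3 of 18 (16.7%) beside 11.4%, and 3 of 11 (27.3%) beside 22.3%.

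Counted over sequence, the muscle genes held 119 pooled regions, or 2.58 per 10 kb of scored sequence (95% Poisson interval 2.14 to 3.08), beside 1.67 per 10 kb around all protein-coding genes. The replicate 1 list gave 3.57 per 10 kb (3.05 to 4.16) beside 2.47, and the replicate 2 list gave 2.79 (2.33 to 3.32) beside 2.13. All 3 lists placed regions more densely at these genes than over the scored sequence of all genes. Neighbouring regions of a list can overlap, as upstream of pat-4, and each was counted. They are then not independent, so intervals over regions may be too narrow. Among the 41 genes, scored length and the number of pooled regions had a Spearman correlation of 0.45, as a description over genes that share the same libraries; over all 19973 genes it was 0.33.

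**Figure D2:**
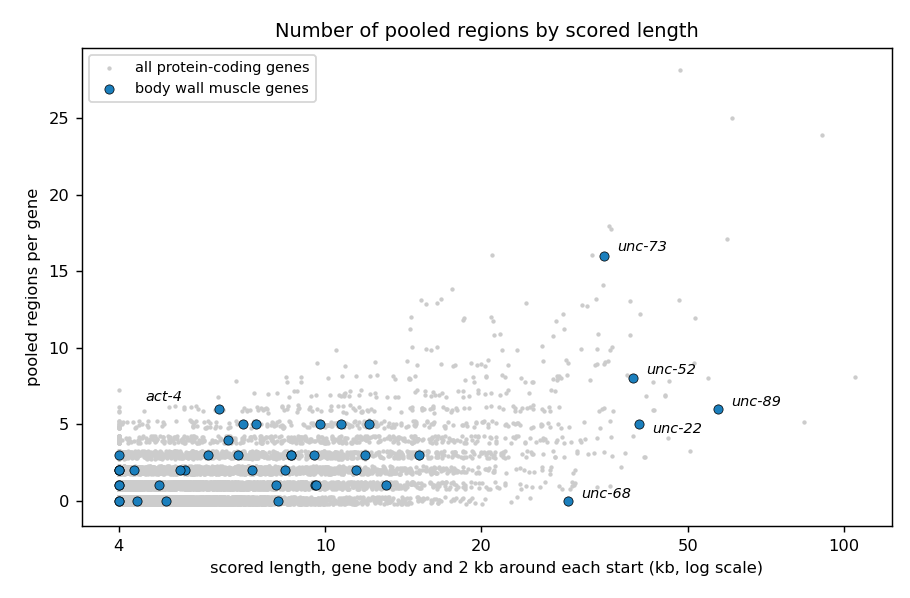
Pooled regions per gene (vertical axis) against scored length in kb (horizontal axis, log scale), with 41 body wall muscle genes in blue and all 19973 protein-coding genes in grey, moved slightly up or down so that points do not overlap. The guidance gene unc-73 holds 16 regions, and unc-68, the longest gene with none, lies at 29.4 kb.

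Agreement between replicates was scored by summits within 100 bp of each other. A pooled region with such a summit in both replicate lists was found at 25 of 41 muscle genes, or 61.0% (44.5 to 75.8%), beside 23.1% of all genes. By length the counts were 5 of 12 (41.7%) beside 17.1%, 11 of 18 (61.1%) beside 29.5%, and 9 of 11 (81.8%) beside 53.3%. The intervals of the shortest and longest classes, 15.2 to 72.3% and 48.2 to 97.7%, hold the share of all genes, and that of the middle class, 35.7 to 82.7%, does not. Region by region the shares were closer: 39 of the 119 muscle regions (32.8%, 24.4 to 42.0%) had a summit in both replicate lists, beside 30.5% of all pooled regions and 94.6% of peaks. The share depended on the match: when any overlap of regions counted, it was 63% of muscle regions, beside 53.9% of all pooled regions, and with summits within 250 bp it was 56.3% of muscle regions. The signals of those 39 regions in the 2 replicates had a Spearman correlation of 0.04, beside 0.38 over the 4987 pooled regions found in both lists and 0.53 over the 493 peaks found in both. These correlations are descriptions over regions of the same 2 libraries.

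The fate factors had weak regions or none. At hlh-1 (chrII:4518574-4522528, plus strand), the MyoD factor, the highest pooled region lay in an intron, 673 bp after the nearest start, with a signal of 41.8 in the pooled list, 22.4 in replicate 1 and 15.01 in replicate 2. A second hlh-1 region, 24 bp before a start, had a signal of 35.1 pooled and 32.6 in replicate 1, at percentile 94.0, and no summit within 100 bp in replicate 2. The hlh-1 region 1937 bp upstream had 29.3 pooled and 28.7 in replicate 1. The highest hlh-1 region of replicate 2 had 17.6, at percentile 52.7, so hlh-1 ranked higher in replicate 1 than in replicate 2.

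At unc-120 (chrI:8460225-8463015), the serum response factor, 1 pooled region in a coding exon, 61 bp after the start, had a signal of 32.3, at percentile 37.3. Replicate 2 had 24.5 there, at percentile 86.8, and replicate 1 had no summit within 100 bp. Replicate 1 had 1 region at unc-120, of signal 15.7, 1148 bp upstream. At hnd-1 (chrX:11684561-11685788), the HAND factor, no list held a region.

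The thick filament genes all had a pooled region, and none of the 8 had one in the top 10% of the pooled list, beside 9.16% of all genes. So few genes cannot be told apart from that share. In replicate 2, myo-3 and unc-22 had a region in the top 10%, at percentiles 93.1 and 91.6, beside 11.3% of all genes. No thick filament gene had one in the top 10% of replicate 1, beside 12.4% of all genes. Their 21 regions came to 1.44 per 10 kb of scored length, below the 1.69 of all genes counted gene by gene. Most of that length came from unc-22 and unc-89, with 5 and 6 regions over 40.3 and 57.2 kb. The density therefore describes mainly these long genes, and it is given for the pooled list only. At myo-3 (chrV:12226817-12234343, minus strand), a body wall myosin heavy chain, 3 pooled regions had signals from 28.9 to 32.3, and the highest lay 607 bp upstream. Replicate 2 had its highest myo-3 region 382 bp upstream, with a signal of 28.7 at percentile 93.1. Replicate 1 had its highest myo-3 region at the other end of the gene, in the 3′ UTR, with a signal of 18.8. The replicates therefore did not place their highest myo-3 signal at the same site. At unc-54 (chrI:14855901-14863482, minus strand), the major myosin heavy chain, the only pooled region lay 24 bp before the start, with a signal of 31.8 pooled, 20.04 in replicate 1 and 14.0 in replicate 2. The highest unc-54 signal of replicate 1, 25.6, lay in the 3′ UTR, as it did at myo-3.

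Among the other thick filament genes, unc-22, which encodes the giant protein twitchin, had the highest pooled signal. Its region in an intron, 1468 bp before an internal start, had a signal of 50.9 pooled, 22.8 in replicate 1 and 27.3 in replicate 2. At unc-89, which encodes the M-line protein obscurin, the highest of 6 regions had 47.5 pooled, 27.8 in replicate 1 and 19.95 in replicate 2, in a coding exon. Both genes are long, with scored lengths of 40.3 and 57.2 kb, and their highest regions were found in both replicate lists.

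Paramyosin, encoded by unc-15, had a highest pooled signal of 35.2, and the myosin chaperone unc-45 had 32.9. The myosin light chain genes mlc-1 and mlc-2 had 27.7 and 28.6, among the lowest of the list. The sequences of mlc-1 and mlc-2 are nearly the same, and whether reads were shared between the copies was not tested. In replicate 1, mlc-1 had no region.

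Thin filament genes held 25 regions, or 3.76 per 10 kb beside 1.69 over all genes. These lay at 8 of 11 genes, beside 51% of all genes with any pooled region. A pooled region found in both replicate lists lay at the same 8 of 11 genes, beside 23.1% of all genes. The highest was act-4 (chrX:4960621-4964413, plus strand), 1 of the worm's actin genes, with 6 pooled regions of signal 40.8 to 55.6 spread from 116 bp before its first start to its 3′ UTR. The region whose sequence is given, chrX:4962300-4962759, had a signal of 55.6 pooled, 23.8 in replicate 1 and 34.8 in replicate 2, where its q-value was 0.0368. A second intron region, with its summit at 1089 bp, had 51.9 pooled, 22.6 in replicate 1 and 33.5 in replicate 2 at q 0.0486. Replicate 1 instead had its highest act-4 signal, 42.9 at q 0.00988, at 683 bp after the first start, where the pooled list had 41.5 and replicate 2 had no summit within 100 bp. The highest act-4 regions of both replicates lay in introns, at different sites. Actin genes are near-identical copies, and whether reads were shared between them was not tested.

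The actin-severing cofilin unc-60 had 52.1 pooled, 24.0 in replicate 1 and 27.7 in replicate 2 at a site 1251 bp upstream. That site lay equally far from the start of the gene F53E2.2. At unc-27 (chrX:8789456-8790621), a troponin I gene, the highest region lay 1588 bp upstream with 51.2 pooled, 27.7 in replicate 1 and 21.3 in replicate 2. Closer to the start, 280 bp upstream, unc-27 had 40.6 pooled and 34.1 in replicate 2, at q 0.0436 and percentile 96.4, and replicate 1 had no summit there. The strongest unc-27 signal of replicate 2 was thus not listed in replicate 1.

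Tropomyosin, encoded by lev-11, had a highest pooled signal of 50.1, in an intron, with 18.99 in replicate 1 and 23.7 in replicate 2. That summit lay 1034 bp from the start of the gene Y105E8B.11 and 2463 bp from the nearest lev-11 start. The troponin T gene mup-2 had 44.6 pooled, 318 bp upstream of its start, and the troponin I gene tni-1 had 42.7 pooled, 1976 bp upstream and so just inside the scored window. The troponin C gene pat-10 had 37.8, past its 3′ end and about as near to the start of F54C1.6. The calponin-related gene unc-87 had 37.5. None of these 5 muscle genes had a region at q below 0.05 in any list. No pooled region was found at unc-78, which encodes an actin-interacting partner of cofilin, at the troponin T gene tnt-2, or at the tropomodulin gene tmd-2. In the replicate lists unc-78 had 1 region in each, and tnt-2 and tmd-2 had 1 each in replicate 1 only.

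**Figure D3:**
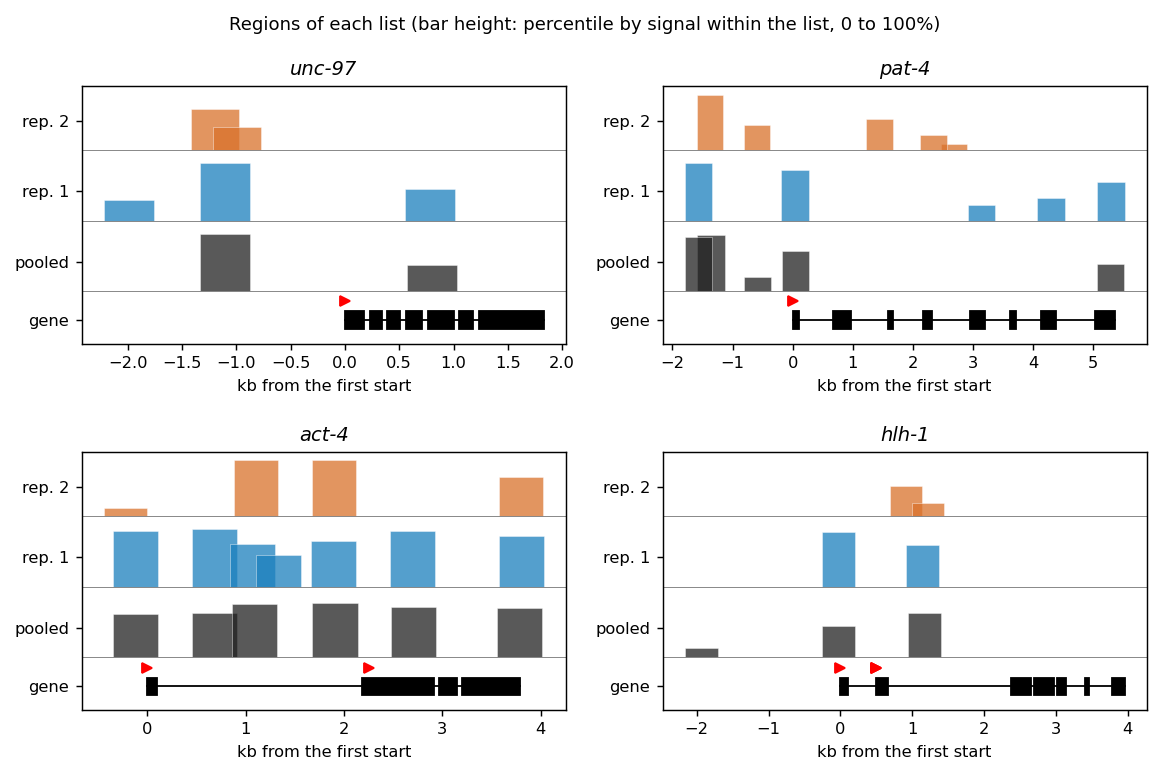
Regions at unc-97, pat-4, act-4 and hlh-1 in the pooled, replicate 1 and replicate 2 lists, by distance in kb from the first start of the gene (horizontal axis), with exons as black boxes and starts as red triangles. Bar height is the percentile of the region by signal within its list, from 0 to 100%. At act-4 the pooled list shows 6 regions, and at pat-4 the highest upstream regions of the 2 replicates overlap with summits over 100 bp apart.

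The attachment genes held the region of highest signal and 39 regions in all, at 12 of 13 genes, beside 51% of all genes with any pooled region. The only peak lay upstream of unc-97 (chrX:5593133-5594965, plus strand), which encodes the LIM-domain adaptor PINCH of the integrin complex. Its region, chrX:5591795-5592254, had its summit 1108 bp upstream and a signal of 76.6 in the pooled list, rank 505 of 16355, at q 0.00892. Replicate 1 had 53.3 there, rank 296 of 24167, at q 0.00508, and replicate 2 had 20.03, rank 6245 of 20865, at q 0.650. So the region was among the highest of replicate 1 and stood at percentile 70.1 in replicate 2. Its pooled signal was close to the lower edge of the thresholded list at 75.8. The other unc-97 region, in a coding exon, had 33.5 pooled.

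At pat-4 (chrIII:89453-94809, minus strand), the integrin-linked kinase, a pair of neighbouring pooled regions lay upstream. The first had its summit 1364 bp upstream, with 63.5 pooled at q 0.0415 and 29.5 in replicate 2, and no replicate 1 summit within 100 bp. The second had its summit 1568 bp upstream, with 54.4 pooled at q 0.171 and 42.2 in replicate 1 at q 0.0130, and no replicate 2 summit within 100 bp. Each replicate therefore placed its upstream summit at a different position. The regions themselves overlapped, at chrIII:96147-96606 in replicate 1 and chrIII:95964-96407 in replicate 2. Both replicate lists thus held signal in this stretch, and only the match within 100 bp failed. The nearest start to both summits was that of the gene C29F9.8, 945 and 741 bp away, which lies on the same strand.

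At deb-1 (chrIV:7085215-7094266, minus strand), which encodes vinculin, the highest region had 54.04 pooled, 27.2 in replicate 1 and 24.8 in replicate 2. It lay past the 3′ end of deb-1 and 318 bp upstream of rps-4, a ribosomal protein gene. At dim-1, an immunoglobulin-domain protein of the muscle attachments, the highest region had 53.5 pooled, 25.9 in replicate 1 and 27.8 in replicate 2, in an intron 527 bp before a start. At unc-96, an M-line protein, the highest region had 52.3 pooled, 35.97 in replicate 1 at q 0.0561, and 14.9 in replicate 2, in an intron far from its start. The deb-1 region stood at percentile 86.9 in replicate 1 and 87.3 in replicate 2, whereas the unc-96 region stood at percentile 95.8 in replicate 1 and 21.9 in replicate 2.

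The remaining attachment genes had weaker pooled signals. The alpha integrin pat-2 had 45.8 and the beta integrin pat-3 had 36.2. Alpha-actinin, encoded by atn-1, had 43.9 at a site 793 bp upstream that both replicate lists held. Perlecan, encoded by unc-52, had 8 regions with a highest signal of 42.6 in an intron. The M-line zinc-finger protein unc-98 had 40.2, in an intron 1290 bp from the start of pcyt-1 and 2552 bp from its own. Kindlin, encoded by unc-112, had 34.8, and the LIM-domain protein unc-95 had 30.2. At pat-6, which encodes parvin, the pooled list held no region, replicate 1 held 3 of signal up to 17.7 and replicate 2 held 1 of signal 16.9. Of these genes, pat-2 had its highest replicate 1 signal, 32.5, at percentile 93.9, but only 13.7 in replicate 2, and at another site.

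The calcium genes showed moderate pooled signal or none. The plasma membrane calcium channel egl-19 had a region in an intron with 42.8 pooled, 27.7 in replicate 1 and 16.4 in replicate 2. The calcium pump of the sarcoplasmic reticulum, sca-1, had 5 regions, and the highest lay 1654 bp upstream with 50.9 pooled and 31.0 in replicate 2. Replicate 1 had no summit within 100 bp there. It did have an overlapping region with its summit 1757 bp upstream and a signal of 22.3. At unc-68, the ryanodine receptor, no pooled region was found over a scored length of 29.4 kb. Replicate 1 had 6 regions at unc-68, of signal up to 20.2, and replicate 2 had 5, of signal up to 21.7. Of the 6 genes without a pooled region, unc-68 was the longest.

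The guidance gene unc-73 held 16 pooled regions over 34.4 kb, the most of any of the 41 genes, at 4.65 per 10 kb beside 1.69 over all genes. The highest lay 949 bp upstream, with 60.7 pooled at q 0.0692, 20.9 in replicate 1, and 33.4 in replicate 2 at q 0.0505. Of its 16 regions, 6 had a summit in both replicate lists. A region in a coding exon had 56.0 pooled, 16.6 in replicate 1 and 27.7 in replicate 2. It lay 832 bp from the start of the gene F55C7.2 and 3733 bp from the nearest unc-73 start. Some other unc-73 regions were also nearest to F55C7.2, and all were counted for unc-73. An intron region 39 bp before an internal start had 53.2 pooled and 33.4 in replicate 1. The unc-73 signal was thus spread over many sites, with different sites highest in each replicate.

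The basement membrane collagens each had regions inside the gene. At let-2, which encodes a chain of type IV collagen, the highest of 5 regions lay in a coding exon with 53.8 pooled and 22.1 in replicate 2, and replicate 1 had no summit within 100 bp. Replicate 1 had its own highest let-2 signal, 33.9, 6294 bp after the start, beside the pooled summit at 6409 bp. At emb-9, which encodes the other chain, 1 region in a coding exon had 48.9 pooled, 25.4 in replicate 1 and 27.6 in replicate 2. The emb-9 site was held by both replicates within 100 bp, and that of let-2 was not.

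**Figure D4:**
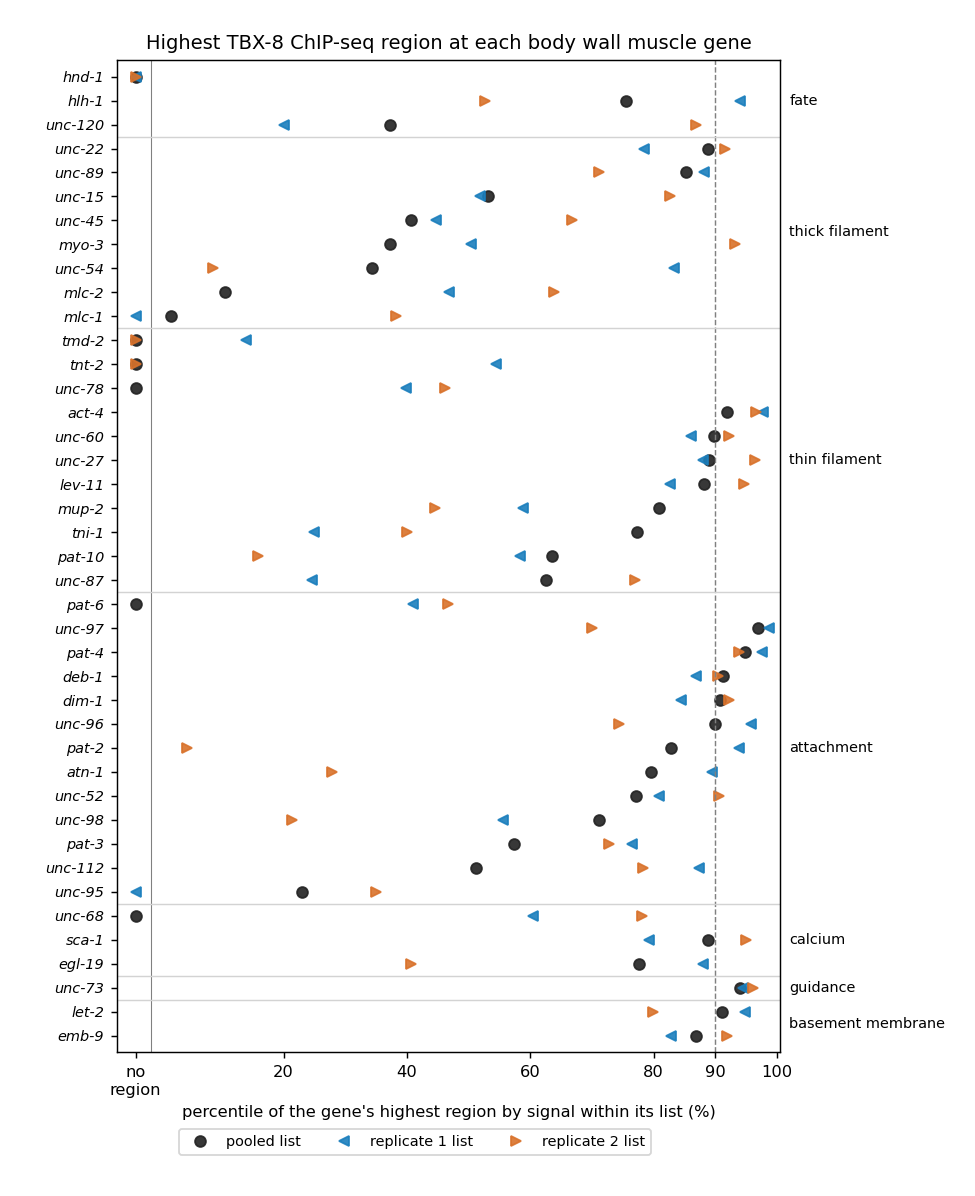
Percentile of the highest region by signal within each list (horizontal axis, percent) for each of the 41 genes (vertical axis, by role), with the pooled list as black circles and the replicates as blue and orange triangles; the dashed line marks the top 10%. The highest point in the pooled list is unc-97 at percentile 96.9, hnd-1 has no region in any list, and for many genes the 2 replicates lie far apart.

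By place, 51 of the 119 regions (42.9%) lay in introns, 38 (31.9%) outside the gene body, 25 (21.0%) in coding exons, beside 16.4% over all genes, and 5 in 3′ UTRs. Inside the gene body lay 81 regions (68.1%), beside 53.0% over all genes. Within 500 bp of a start of the gene itself lay 24 regions (20.2%), beside 27.6% over all genes. The share inside the body was above that over all genes and the share at a start was below it. Neither difference was tested, and these genes are longer than most. Of the highest regions of the 35 genes, 8 lay within 500 bp of a start. The nearest protein-coding start belonged to another gene at 29 of the 119 regions, as at pat-4, deb-1, lev-11, pat-2, unc-96, unc-98 and unc-73. No share over all genes is given here for introns, 3′ UTRs, highest regions or nearest starts. Those counts are descriptions and show nothing particular to the muscle genes.

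**Figure D5:**
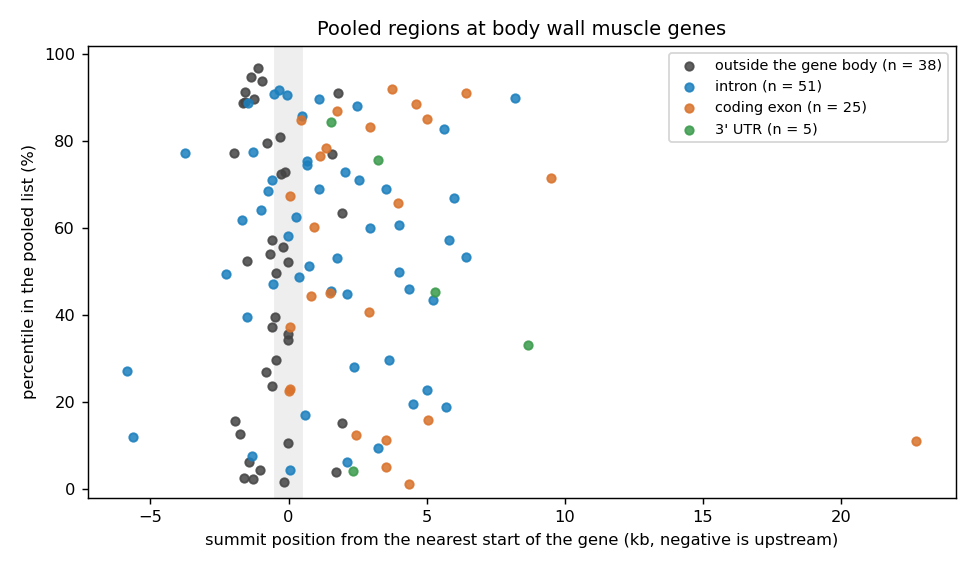
Percentile in the pooled list (vertical axis, percent) of the 119 regions against distance from the nearest start of the gene in kb (horizontal axis, negative upstream), coloured by place; the grey band marks 500 bp on either side of a start. Of the 119 regions, 24 lie in the band, and the highest, at unc-97, lies outside it.

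Signal of the 119 regions ran from 27.6 to 76.6 with a median of 35.4, beside a median of 34.6 over all pooled regions and 101.4 over peaks. The regions were spread over the whole list: 13 lay in the lowest 10% and 10 in the highest. No muscle region lay by a small RNA gene, taken as 200 bp or less from a gene for tRNA, rRNA, snRNA or snoRNA (0 of 119, exact upper bound 3.05%), beside 3.11% of all pooled regions and 37.4% of peaks. Median GC content of the 201 bp windows was 42.8%, beside 39.3% over all pooled regions and 46.8% over peaks, and the part of base composition in these results was not tested.

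Sequence words were searched on both strands of the 201 bp windows. The T-box core GGTGTG or CACACC occurred at 7 of 119 summits (5.88%, 2.40 to 11.7%), beside 6.89% of all pooled regions and 9.60% of peaks. These 7 windows belonged to unc-89, unc-112, egl-19, sca-1, unc-73 and, with 2 windows, act-4. The longer T-box site, the core with an A on either side, occurred at none, beside 0.569% of all pooled regions. The E-box CANNTG, the class of word bound by HLH-1, occurred at 64 summits (53.8%) beside 52.5%. Its subset CAGCTG occurred at 4 (3.36%) beside 4.51%, and the CArG box, the word of serum response factors, at 1 (0.84%) beside 1.54%. GAGAGA occurred at 30 summits (25.2%, 17.7 to 34.0%), beside 16.3% of all pooled regions and 32.2% of peaks. GAGAGA was the only word of these 6 whose interval at the muscle regions left out the share of all pooled regions. A match is a run of letters and not a shown binding site, and a window without a match says only that these letters were not in it.

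For comparison, 62 other muscle genes were scored in the same way, including additional actins, M-line proteins, laminins, receptors of the neuromuscular junction and the dystrophin complex. A pooled region was found at 46 (74.2%, 61.5 to 84.5%), beside 51% of all genes. One in both replicate lists was found at 21 (33.9%, 22.3 to 47.0%), beside 23.1% of all genes and below the 61.0% of the 41 genes. The 62 genes were not split by scored length, although this share was higher in longer genes over all genes. A peak was found at 3, him-4, lam-1 and lim-8 (4.84%, 1.01 to 13.5%), beside 3.33% of all genes. The highest was at him-4, which encodes hemicentin of the extracellular matrix, with 240 pooled, 131 in replicate 1 and 117 in replicate 2, in an intron within 200 bp of tRNA genes. At lim-8, a LIM-domain muscle protein, the peak of 87.4 also lay beside a tRNA gene. At lam-1, a laminin beta chain, the peak of 119 lay outside the gene body and 213 bp from the start of W03F8.4. The actin gene act-1 had 71.8 pooled at q 0.0138, 602 bp upstream, with 36.7 in replicate 1 and 27.3 in replicate 2, which was no peak. Against these, the unc-97 peak was the lowest of the peaks at muscle genes and the peak with the widest gap in rank between the replicates.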

How the data were processed

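The data were 2 replicates of TBX-8 ChIP-seq in whole embryos, in 1 group. Per the deposited file descriptions, the authors called regions on each replicate with a control and on pooled alignments, and kept a thresholded list after comparing replicates by irreproducible discovery rate, on ce11. Neither aligner nor caller is named (not given in the sources used here). As deposited, the signal is the authors' value for each region, and the deposited −log10 q-value was converted to q. Neither is scaled between lists, so values were compared within a list. Columns of other samples numbered 0.

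Summits were assigned to genes of Ensembl release 115 (WBcel235, the same assembly) in the gene body or within 2000 bp of a start, for 19973 protein-coding genes on the nuclear chromosomes. Sequence came from RefSeq's WBcel235. Python 3.11.15, numpy 2.4.6, scipy 1.17.1 and pandas 2.3.3 were used. The scoring was tested on planted regions of known position. Shares carry exact Clopper-Pearson intervals and densities exact Poisson intervals at 95%, for counting error only. No test was made, because there was 1 group and neither genes nor regions are replicates. With no read numbers, depth is unknown.

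The 41 genes, the list of other muscle genes and the rules were chosen with earlier results of these data known, so no pattern here is independent support. Values were given in full for genes with a peak or a pooled region at q below 0.05, the 10 of highest pooled signal, the fate factors, myo-3 and unc-54. Genes named beside a shared region and the 4 other muscle genes of highest signal followed the same rule. Sequences were shown for the gene with a peak and the next highest in pooled signal, leaving out unc-73, since sequences of its chromosome are not shown. Of the other muscle genes listed, 1 name was not matched and was not used here.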

Additional observations from a re-analysis of the deposited data

How the results depend on the processing

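Of 52 alternative values, 38 stayed close to the value reported; shares over all genes were not recomputed under most alternatives. The count of 35 genes with a pooled region ranged from 25, where both replicates had to hold the summit, to 38 in either replicate list. With a start window of 1000 bp, genes at q below 0.05 fell to 0 and genes in the top 10% to 4. Counting a region only for the gene with the nearest start gave 1 and 4, and 1.95 regions per 10 kb. A limit of q below 0.01 left 1 gene, and the part of the thresholded list above its median signal left 0 genes with a peak. Without the gene body, 32% of regions lay within 500 bp of a start. With it, 35.3% lay within 1000 bp. Summits within 250 bp matched both replicates at 56.3% of regions and overlapping regions at 63%.

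With 1 replicate list alone, regions per 10 kb ranged from 2.79 to 3.57, genes with a region were 38 in each, and genes at q below 0.05 ranged from 2, below the share of all genes, to 3 in replicate 1, above it. Also by replicate, genes in the top 10% of the list ranged from 8 to 13, and regions within 500 bp of a start from 18.2 to 18.6%. Among the 521 highest regions of a replicate list, genes with a peak ranged from 0 in replicate 2 to 1 in replicate 1, the unc-97 region. That alternative and the length classes were chosen after seeing the data. The share held by both replicates has no value with 1 replicate. No paired analysis was possible because both samples belong to one group. The causes were not tested. Depth is unknown, so a gene without a region is only one with none listed.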
